A study of Mus musculus with 12 samples.

Results

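The genes described here build cholesterol and fatty acids. They are 29 mouse genes chosen by function and matched by Ensembl identifier to the rows of a table of 15555 genes, and all 29 were found and passed the filter on low counts that left 12671 genes for testing. By role they are 7 genes of the mevalonate arm, 11 of the squalene and late sterol arm, 5 of the SREBP axis and sterol transport, 3 of fatty acid synthesis and 3 of desaturation and elongation. Expression was measured by RNA sequencing in bone marrow derived macrophages, which are macrophages grown from marrow precursors in a dish. The 4 genotypes were wild type (WT), Cbl-/-, Cbl-b-/- and DKO, labelled as lacking both genes, with 3 libraries each. Cbl and Cbl-b are related E3 ubiquitin ligases that mark activated receptors, among them the CSF-1 receptor, for removal. Cells of every genotype had grown until day 9 in serum-containing medium with L-cell supernatant as the source of CSF-1, and only adherent cells were collected. The labels do not give the strain, the age of the mice, or whether the Cbl alleles were deleted in every cell or by a Cre driver. They do not say that replicates came from separate animals, and they mention RNA pooled at equal amounts, so the p-values cover library-to-library spread alone, which could be technical.

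Cholesterol synthesis starts from acetyl-CoA, which the mevalonate arm turns into isoprenoid units and farnesyl diphosphate. The squalene arm joins these into squalene, closes the rings to give lanosterol and trims lanosterol to cholesterol. The pathway is governed by SREBP transcription factors, which are held in the endoplasmic reticulum with their escort SCAP by INSIG proteins when sterols are plentiful and are cut free to enter the nucleus when sterols run low. Fatty acid synthesis draws on the same acetyl-CoA through ATP citrate lyase, acetyl-CoA carboxylase and fatty acid synthase. In macrophages these pathways supply membrane for growth and phagocytosis, and they are balanced against sterol export.

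Total counts ran from 21048103 to 43946503 per library. The targeted transcripts bore out only part of the labels. Cbl was at 136 to 143 CPM (read counts scaled to library size with TMM factors) in WT, 49.3 to 54.0 in Cbl-/- and 35.0 to 41.0 in DKO, while Cbl-b-/- stood at 137 to 143. Cblb, the gene for Cbl-b, was at 55.5 to 62.2 CPM in WT, 49.4 to 54.5 in the libraries labelled Cbl-b-/- and 68.0 to 73.7 in those labelled DKO. Its log2 difference from WT was -0.17 (SE 0.06, adjusted p = 0.46) in Cbl-b-/- and 0.27 (SE 0.06, adjusted p = 0.0027) in DKO, so the transcript level did not show the loss that these labels name. Gene counts do not tell whether part of a transcript, or its protein, is missing. Cbl-b-/- and DKO below mean the libraries so labelled. The 8 macrophage markers summed to 17073 to 22670 CPM over all libraries. Most of this was Lyz2, at 11915 to 17323 CPM, while Mertk was at 11.3 to 33.8. The library DKO 3 stood apart from DKO 1 and DKO 2 by transcript base composition. Across all genes with a GC content, 12641 of 12671, the deviation of a library from its genotype mean had a Spearman correlation with GC content of 0.381 in DKO 1, 0.569 in DKO 2 and -0.665 in DKO 3, against -0.1 to 0.145 in the other libraries. These are correlations across genes within 1 library, and genes are not independent replicates. The deviations of a gene within a genotype cancel, so a trend in DKO 3 alone would give the opposite sign in DKO 1 and DKO 2. Their values do not show a trend of their own. Counts of members called in comparisons with DKO are given with and without DKO 3 below, as are the log2 fold changes of called genes printed below that leaving it out moved by over 1.5 times.

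In WT the level per kb of exon ranged widely among the synthesis genes. Exon length here joins the annotated exons of all transcripts of a gene, and a longer union lowers the value. It was 17.1 kb for Acaca and 10.8 kb for Lss, so their rank depends on this choice. The highest were Srebf2, which encodes SREBP2, at 37.1 ± 0.62 CPM per kb of exon (SD, n = 3), the sterol-sensing brake Insig1 at 36.9 ± 0.38, Acly at 36.7 ± 0.69 and the desaturase Fads1 at 36.1 ± 1.2. The lowest were the sterol reductase Tm7sf2 at 1.75 ± 0.21 CPM per kb, the elongase Elovl6 at 2.53 ± 0.18, the carboxylase Acaca at 2.74 ± 0.10 and lanosterol synthase Lss at 3.34 ± 0.20. Even the least counted member, Tm7sf2, had at least 154 reads in every library.

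Promoter sequence is shown for 6 members whose levels carry the comparisons below, 4 enzymes and the regulators Insig1 and Srebf2. The windows run from 250 bases before to 50 bases after the RefSeq transcription start on build GRCm38.p6, written 5′ to 3′ on the strand of the gene. Capitals mark a CCAAT box, the site read by NF-Y, on either strand (ATTGG on the other), and in Hmgcs1 also a match to TCACNCCAC, a form of the sterol regulatory element.
Hmgcs1 (chr13:119690101-119690400, plus strand): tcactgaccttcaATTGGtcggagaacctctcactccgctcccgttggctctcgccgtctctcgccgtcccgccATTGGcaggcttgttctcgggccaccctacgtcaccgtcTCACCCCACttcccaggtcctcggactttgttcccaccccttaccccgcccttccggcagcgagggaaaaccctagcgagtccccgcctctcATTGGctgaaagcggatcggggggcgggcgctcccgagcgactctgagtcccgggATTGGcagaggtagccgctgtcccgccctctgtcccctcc
Cyp51 (chr5:4104648-4104947, minus strand): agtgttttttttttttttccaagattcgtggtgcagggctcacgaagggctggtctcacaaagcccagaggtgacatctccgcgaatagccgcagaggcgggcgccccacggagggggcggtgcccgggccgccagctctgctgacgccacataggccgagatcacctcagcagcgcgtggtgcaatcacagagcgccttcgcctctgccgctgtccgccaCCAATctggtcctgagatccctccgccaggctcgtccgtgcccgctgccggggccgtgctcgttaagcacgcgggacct
Hsd17b7 (chr1:169969156-169969455, minus strand): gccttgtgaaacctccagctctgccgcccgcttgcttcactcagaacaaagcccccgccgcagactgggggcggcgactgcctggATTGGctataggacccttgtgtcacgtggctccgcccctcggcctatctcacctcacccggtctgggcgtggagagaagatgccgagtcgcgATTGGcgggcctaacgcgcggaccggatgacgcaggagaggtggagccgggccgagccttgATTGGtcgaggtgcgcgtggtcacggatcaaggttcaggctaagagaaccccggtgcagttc
Sc5d (chr9:42264251-42264550, minus strand): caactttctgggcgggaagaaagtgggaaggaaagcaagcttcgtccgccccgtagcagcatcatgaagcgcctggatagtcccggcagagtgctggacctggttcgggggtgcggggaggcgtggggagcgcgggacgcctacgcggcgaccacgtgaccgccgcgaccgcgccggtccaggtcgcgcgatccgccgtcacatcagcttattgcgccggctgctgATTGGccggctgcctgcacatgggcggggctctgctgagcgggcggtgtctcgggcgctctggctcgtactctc
Insig1 (chr5:28071162-28071461, plus strand): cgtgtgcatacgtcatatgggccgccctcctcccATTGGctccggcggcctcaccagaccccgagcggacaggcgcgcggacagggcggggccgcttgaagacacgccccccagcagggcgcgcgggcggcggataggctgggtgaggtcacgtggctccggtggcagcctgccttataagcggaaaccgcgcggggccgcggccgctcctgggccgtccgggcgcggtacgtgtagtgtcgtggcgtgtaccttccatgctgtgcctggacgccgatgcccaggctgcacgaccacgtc
Srebf2 (chr15:82147019-82147318, plus strand): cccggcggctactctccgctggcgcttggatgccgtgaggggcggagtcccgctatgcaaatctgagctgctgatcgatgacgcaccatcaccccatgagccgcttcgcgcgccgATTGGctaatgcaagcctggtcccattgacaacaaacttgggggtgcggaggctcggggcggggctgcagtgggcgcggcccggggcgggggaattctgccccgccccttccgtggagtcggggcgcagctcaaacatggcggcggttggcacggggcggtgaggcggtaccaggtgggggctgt

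Windows were found for 24 of the 29 members, 30 windows in all, while Fdps, Fdft1, Sqle, Stard4 and Fads1 had none. Both strands were searched for 3 motifs, and in the member windows matches of different motifs overlapped in 0 of 30. CCAAT was present in 19 of the 30 windows (63.3%), against 37.4% of all 32851 windows and 37.9% of the 12506 windows of tested genes. In Hmgcs1 it occurs 4 times and in Hsd17b7 3 times. GGGCGG, the GC box read by Sp1, was present in 23 of 30 (76.7%), against 35.7% of all windows and 61.6% of those of tested genes. TCACNCCAC was found in 1 of 30 windows, that of Hmgcs1, where the match starts 137 bases before the transcription start, against 1.24% of all windows and 1.15% of those of tested genes. Only exact matches to TCACNCCAC were counted, so a window without one may hold another form of the element. A match is a string of letters and not a shown binding site.

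The DKO libraries differed most from WT. Of the 29 synthesis genes, 13 were higher and 3 lower at an adjusted p under 0.05 (edgeR's quasi-likelihood test, Benjamini-Hochberg over all genes tested), where 35.4% of all tested genes were called, 19.1% higher and 16.3% lower. The increases lay in the enzymes, with 6 of 7 genes of the mevalonate arm, 5 of 11 of the squalene and late sterol arm and 2 of 3 of fatty acid synthesis, and they were small, from 1.13-fold to 1.39-fold. The decreases were in Srebf2 and Scap, the transcription factor and its escort, and in the desaturase Fads1. The median log2 fold change of the 29 genes was 0.18, against -0.00 over all tested genes, and 22 of 29 were above 0. For 15 members every DKO library was above every WT library (23.7% of all genes), and for 5 every DKO library was below (22.8%). The summed level of the 29 genes was 2413 ± 11 CPM in DKO and 2205 ± 24 in WT (SD, n = 3 each). In bulk RNA a change in the make-up of the cells and a change in RNA per cell cannot be told apart.

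**Figure D1:**
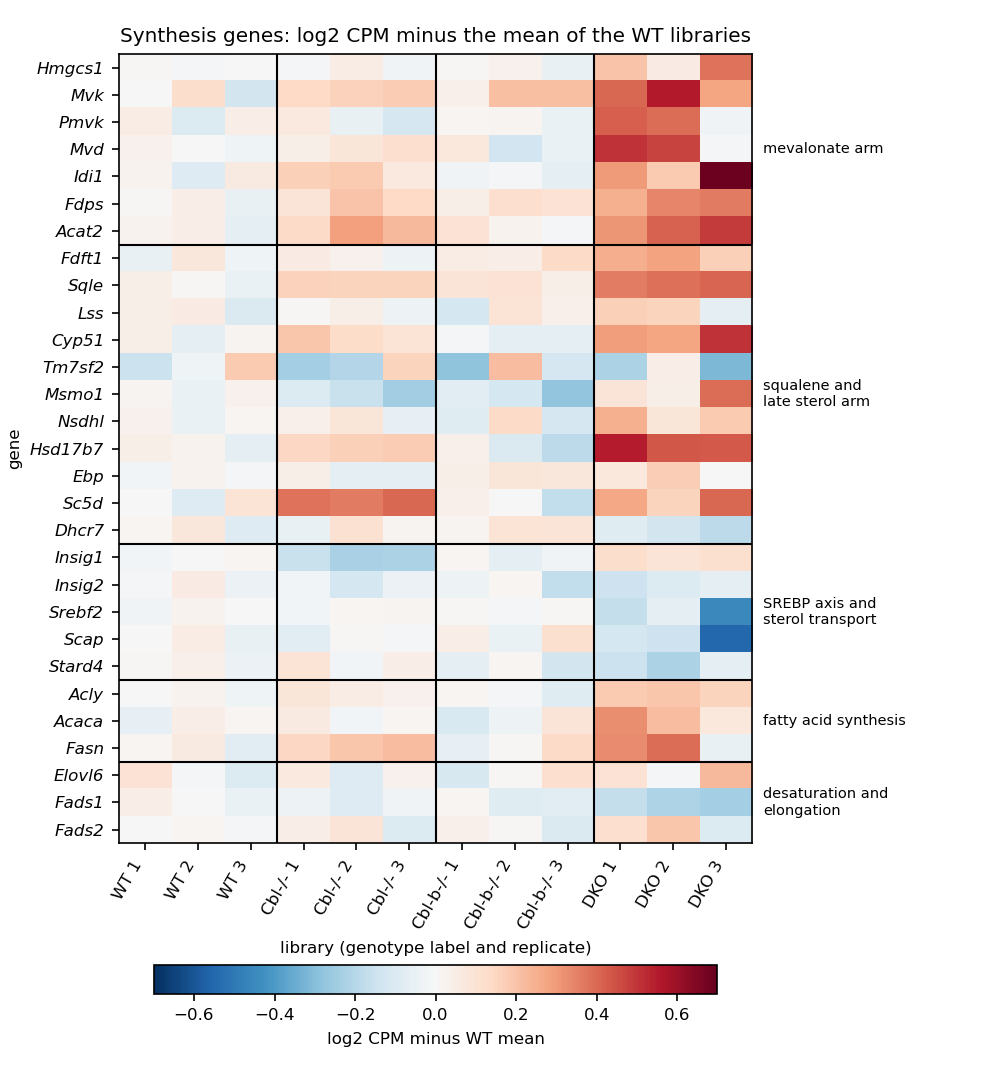
Log2 CPM of each of the 29 synthesis genes in each of the 12 libraries minus the mean of the WT libraries, with genes in rows by role and libraries in columns by genotype; red is above and blue below the WT mean. The DKO columns are red for most enzymes, with 22 of 29 genes above WT on average, and blue for Srebf2, Scap and Fads1, and DKO 3 differs from DKO 1 and DKO 2 in genes such as Idi1 and Mvd.

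In the mevalonate arm the median log2 fold change was 0.34. Acat2 (chr17:12942890-12960747), the cytosolic thiolase that joins acetyl-CoA units, was at 27.3, 27.7 and 25.5 CPM in WT and 33.2, 35.7 and 37.7 in DKO. All DKO libraries were above all WT libraries, and the gene rose 1.32-fold (log2 0.40, SE 0.07, adjusted p = 0.0003). Hmgcs1 (chr13:119690379-119708260), HMG-CoA synthase, was at 114, 113 and 113 CPM in WT and 130.2, 118 and 147 in DKO. DKO 3 was the highest and the groups did not overlap (log2 0.22, SE 0.07, adjusted p = 0.017), but the log2 fold change was 0.13 without DKO 3 (adjusted p = 0.036). The call was lost without WT 2 (log2 0.22, adjusted p = 0.057) and with a correction for GC content, described below (log2 0.10, adjusted p = 0.073). Mvk (chr5:114444269-114460591), mevalonate kinase, was at 13.9, 15.1 and 12.6 CPM in WT and 18.3, 20.4 and 16.8 in DKO. It rose 1.33-fold with no overlap (log2 0.41, SE 0.09, adjusted p = 0.0026). Idi1 (chr13:8885501-8892451), the isomerase of the isoprenoid unit, was at 98.7, 91.3 and 102 CPM in WT and 119.5, 110.2 and 157 in DKO. It also rose 1.33-fold (log2 0.41, SE 0.10, adjusted p = 0.0034), and DKO 3 lay well above DKO 1 and DKO 2. Without DKO 3 its log2 fold change was 0.24 (adjusted p = 0.0012). Fdps (chr3:89093588-89101959), farnesyl diphosphate synthase, was at 77.8, 80.1 and 74.6 CPM in WT and 92.0, 98.3 and 99.5 in DKO. It rose 1.25-fold (log2 0.32, SE 0.06, adjusted p = 0.0003), with 1124 exonic bases shared with Gm43738 on the same strand, so its reads may be split between them.

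The remaining mevalonate enzymes split on DKO 3. Mvd, the decarboxylase that makes the isoprenoid unit, was at 12.4, 12.1 and 11.9 CPM in WT and 17.2, 16.9 and 12.1 in DKO, so DKO 3 lay within the WT range. The call for Mvd (log2 0.34, SE 0.12, adjusted p = 0.03) was lost without any 1 of the WT libraries (adjusted p = 0.068, 0.079 and 0.08 at log2 0.35, 0.34 and 0.32), without DKO 1 (log2 0.25, adjusted p = 0.14) and without DKO 2 (log2 0.27, adjusted p = 0.11), while without DKO 3 the log2 was 0.49 (adjusted p = 0.00018). Pmvk, phosphomevalonate kinase, was at 12.8, 11.5 and 12.8 CPM in WT and 16.5, 16.2 and 12.1 in DKO, and it did not pass (log2 0.27, SE 0.11, adjusted p = 0.065) unless DKO 3 was left out (log2 0.41, adjusted p = 0.0015). Mvd, Pmvk, Msmo1 and the other members given by library beyond the rule in the methods were chosen after their values were seen.

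In the squalene and late sterol arm the median log2 fold change was 0.18. Sqle (chr15:59315077-59331192), squalene epoxidase, which adds oxygen to squalene before ring closure, was at 129.7, 127 and 122 CPM in WT and 162, 165 and 168 in DKO. The DKO libraries lay close together above WT, a 1.31-fold rise (log2 0.38, SE 0.05, adjusted p = 1.2e-05). Fdft1 (chr14:63145150-63179578), squalene synthase, was at 38.4, 42.1 and 38.9 CPM in WT and 47.4, 48.3 and 44.7 in DKO, a 1.17-fold rise (log2 0.23, SE 0.06, adjusted p = 0.0079). It shares 774 exonic bases with the protease gene Ctsb on the opposite strand, and the sources used here do not say whether counting used the strand. Cyp51 (chr5:4081145-4104746), lanosterol demethylase, was at 104, 97.2 and 103 CPM in WT and 125, 123 and 144 in DKO. It rose 1.29-fold without overlap (log2 0.36, SE 0.06, adjusted p = 0.00027), with 166 exonic bases shared with Akap9 on the opposite strand. Hsd17b7 (chr1:169949535-169969241), the ketoreductase of sterol demethylation, had the largest log2 fold change of the 29 genes. It was at 43.1, 42.6 and 40.0 CPM in WT and 61.4, 56.7 and 56.5 in DKO, 1.39-fold higher (log2 0.47, SE 0.07, adjusted p = 3.2e-05). Sc5d (chr9:42251595-42264256), which introduces a double bond late in the pathway, was at 40.6, 38.3 and 43.6 CPM in WT and 49.3, 45.5 and 53.9 in DKO. Its rise was 1.22-fold (log2 0.28, SE 0.07, adjusted p = 0.0077), without WT 2 the adjusted p was 0.05 at a log2 of 0.24, and with the GC correction the log2 was 0.16 (adjusted p = 0.027).

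The other 6 genes of that arm did not pass in DKO against WT. Msmo1, the methylsterol oxidase, was at 166, 159 and 167 CPM in WT and 174, 169 and 215 in DKO (log2 0.18, SE 0.08, adjusted p = 0.092), and without DKO 3 the log2 was 0.07 (adjusted p = 0.38). Nsdhl, its partner in demethylation, had a log2 fold change of 0.17 (adjusted p = 0.095), Lss of 0.08 (adjusted p = 0.44), the isomerase gene Ebp of 0.08 (adjusted p = 0.33), Tm7sf2 of -0.16 (adjusted p = 0.45) and Dhcr7, a terminal reductase, of -0.13 (adjusted p = 0.14). Tm7sf2 shares 532 exonic bases with Vps51 on the same strand. The increases within the arm were therefore at squalene formation and oxidation and at 3 later steps, while the ring-closing gene Lss was at 36.0 ± 2.2 CPM in WT and 38.3 ± 3.3 in DKO.

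Of the 5 regulators and sterol carriers, 0 were called higher and 2 lower in DKO, with a median log2 fold change of -0.14. Srebf2 (chr15:82147181-82205379) was at 262, 271 and 267 CPM in WT and 237, 255 and 195 in DKO, below WT in every DKO library and lowest in DKO 3. It fell to 0.858-fold of WT (log2 -0.22, SE 0.07, adjusted p = 0.026). Without DKO 3 the log2 fold change was -0.11 (adjusted p = 0.035), and without any 1 of the WT libraries the adjusted p was 0.055, 0.082 or 0.059 at log2 -0.23, -0.21 or -0.22. Scap was at 68.2, 70.9 and 65.8 CPM in WT and 62.6, 61.7 and 46.7 in DKO, again lowest in DKO 3 (log2 -0.26, SE 0.09, adjusted p = 0.028). Without DKO 3 its log2 fold change was -0.14 (adjusted p = 0.057), and the call was also lost without WT 1 (log2 -0.27, adjusted p = 0.07) and without WT 2 (log2 -0.24, adjusted p = 0.1). Insig1 (chr5:28071363-28078662), itself a sterol-regulated SREBP target, was at 113, 114 and 115 CPM in WT and 124, 121 and 123 in DKO. The groups did not overlap, yet the difference of 1.08-fold did not pass (log2 0.11, SE 0.05, adjusted p = 0.099). Insig2, the other INSIG gene, had a log2 fold change of -0.10 (adjusted p = 0.27), and Stard4, a sterol carrier in the cytosol, of -0.14 (adjusted p = 0.077).

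In fatty acid synthesis, Acly (chr11:100476353-100528000), which releases acetyl-CoA from citrate, was at 194, 197 and 189.7 CPM in WT and 219.8, 221 and 216 in DKO. The groups were well apart for a 1.13-fold rise (log2 0.18, SE 0.05, adjusted p = 0.0093). Acaca, acetyl-CoA carboxylase, was at 44.9, 48.2 and 47.1 CPM in WT and 58.5, 54.3 and 49.1 in DKO (log2 0.21, SE 0.07, adjusted p = 0.031). The Acaca call was lost without any 1 of WT 1, WT 2, WT 3, DKO 1 and DKO 2, at log2 0.18, 0.23, 0.21, 0.15 and 0.20 and adjusted p = 0.13, 0.052, 0.064, 0.15 and 0.056. Fasn, fatty acid synthase, was at 165, 171 and 155 CPM in WT and 206, 215 and 158 in DKO, with DKO 3 inside the WT range, and it did not pass (log2 0.23, SE 0.09, adjusted p = 0.052) unless DKO 3 was left out (log2 0.36, adjusted p = 2.1e-05). Fads1 (chr19:10182888-10196877), a desaturase that makes polyunsaturated fatty acids, went the other way. It was at 179, 174 and 168 CPM in WT and 155, 149 and 147 in DKO, with no overlap, and fell to 0.866-fold of WT (log2 -0.21, SE 0.05, adjusted p = 0.0051). Fads2, the desaturase acting before it, and Elovl6, an elongase, had log2 fold changes of 0.08 (adjusted p = 0.47) and 0.11 (adjusted p = 0.39).

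**Figure D2:**
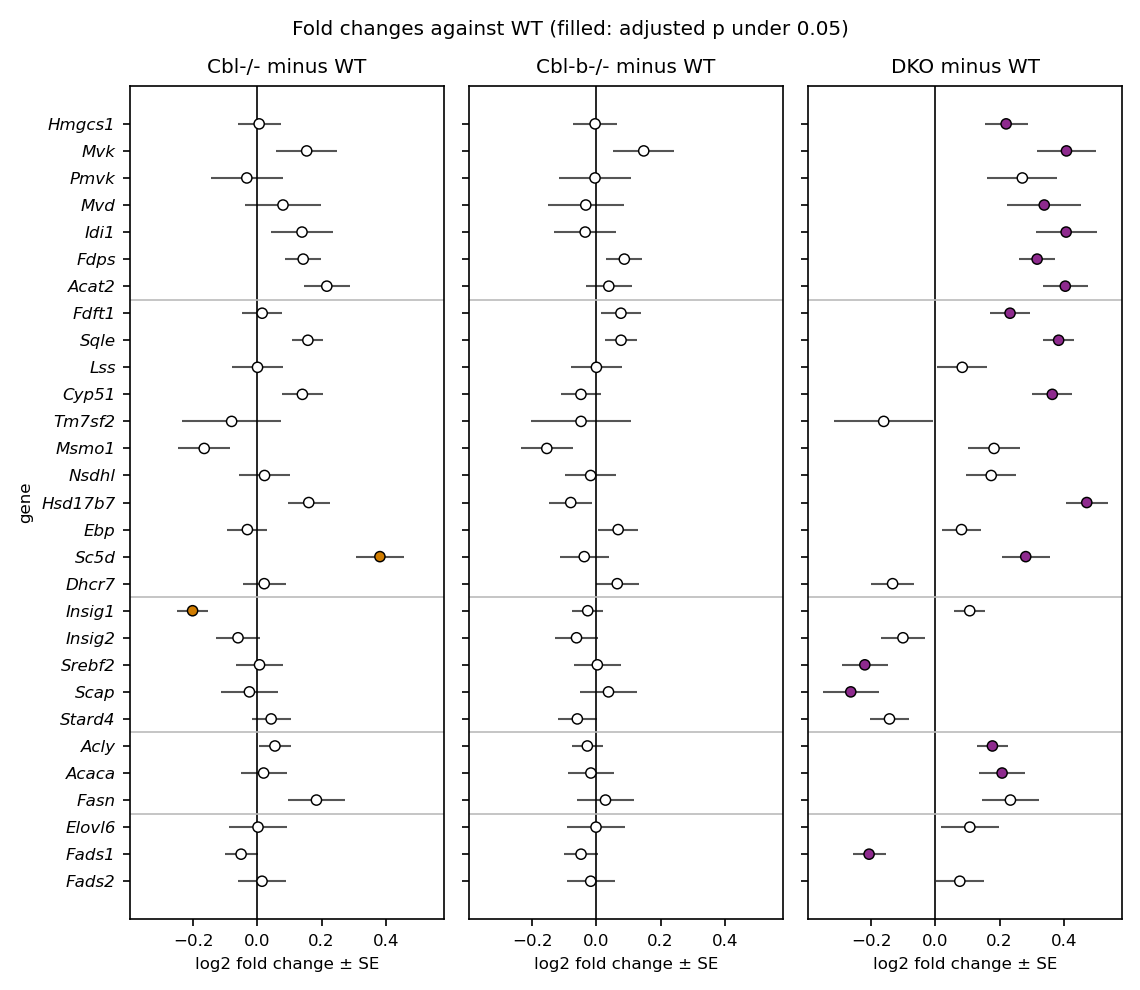
Log2 fold change against WT (points, with bars of 1 SE) for each of the 29 synthesis genes for each knockout genotype, from edgeR over 12 libraries; filled points have an adjusted p under 0.05. The Cbl-/- panel has 2 filled points, the Cbl-b-/- panel 0 and the DKO panel 16, and no filled point lies beyond 0.47 or below -0.26.

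The split of higher and lower members depended on the scaling. With total counts in place of TMM factors, DKO against WT had 8 members higher and 5 lower. Of all genes 14% were then higher and 22.7% lower, with a median log2 fold change of -0.07. There Hmgcs1, Mvd, Fdft1, Acly and Acaca no longer passed, and Dhcr7 and Stard4 passed as lower. The 8 members called in DKO against WT under all 21 alternative settings were Acat2, Cyp51, Fads1, Fdps, Hsd17b7, Idi1, Mvk and Sqle. Without WT 2 the count was 10 in place of 16, while calls over all genes also changed with the library left out (ranges in the last section). Without DKO 3 it was 16 higher and 3 lower, where 20% and 17.4% of all genes were. Fads2 (log2 0.16, adjusted p = 0.049) and Stard4 (log2 -0.18, adjusted p = 0.012) were then among the calls. With each library corrected for GC content, a setting chosen after seeing the data, the count was 13 higher and 5 lower. There 19.4% of all genes were higher and 23.6% lower.

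The members followed the GC content of their transcripts in DKO 3. The deviation of a member from its DKO mean had a Spearman correlation with GC content over the 29 genes of -0.843 in DKO 3, 0.505 in DKO 1 and 0.866 in DKO 2. Because deviations from a shared mean cancel, the values of DKO 1 and DKO 2 are not separate from that of DKO 3. The 14 members below the median GC of 49.6% had a median deviation of 0.061 in log2 CPM in DKO 3, and the 15 others of -0.136. At the ends were Idi1, with 41.9% GC and a deviation of 0.30, and Mvd, with 59.0% GC and -0.33. Over the 29 genes the log2 fold change of DKO against WT itself had a Spearman correlation with GC content of -0.268, and over all tested genes of -0.172. The part of GC content in the calls was tested only by the correction above.

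**Figure D3:**
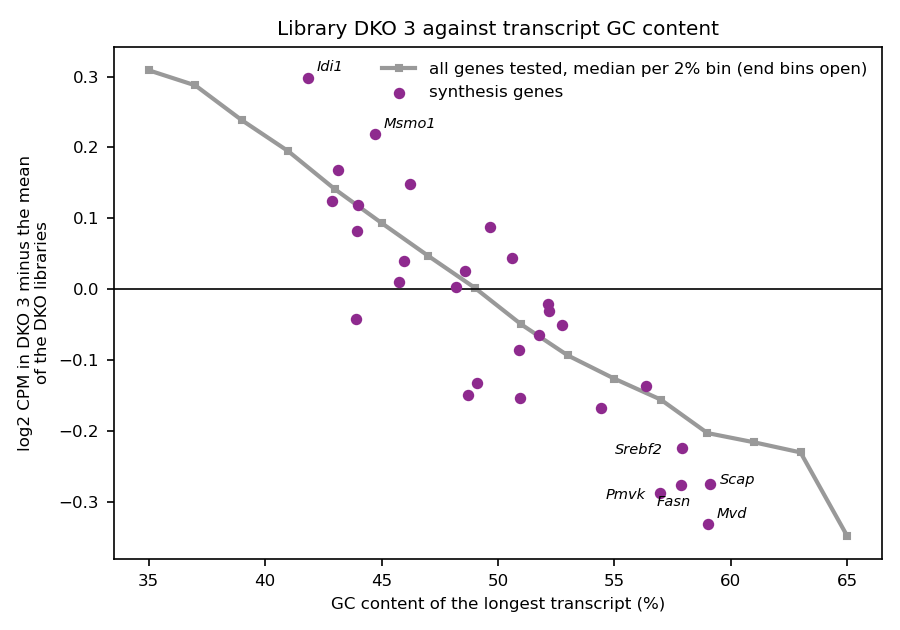
Log2 CPM in the library DKO 3 minus the mean of the 3 DKO libraries, against the GC content of the longest transcript; purple points are the 29 synthesis genes and the grey line is the median of all tested genes in 2% bins. Points and line fall together from GC-poor genes such as Idi1 at 0.30 to GC-rich genes such as Mvd at -0.33.

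Markers of other cells moved with the DKO libraries. Calls below are for DKO against WT, where 19.1% of all tested genes were higher and 16.3% lower. The 6 monocyte markers summed to 156 to 212 CPM in DKO and 55.6 to 59.7 in WT, and 6 of 6 were called higher. The 4 tested granulocyte markers summed to 64.03 to 86.68 CPM in DKO and 2.72 to 3.85 in WT, with 4 of 4 higher, while Camp, Mpo, Elane and Retnlg had no row in the table. The 2 tested dendritic cell markers, 1 of them called higher, summed to at most 2.40 CPM in DKO and 1.05 in WT, and the 2 tested stromal markers, both higher, to at most 13.6 and 4.54. The 8 macrophage markers summed to 17073 to 20316 CPM in DKO and 19937 to 21921 in WT, with 2 higher and 3 lower. Fcgr1 (1.76-fold) and Cd14 (1.58-fold) were higher, and Csf1r (0.775-fold), Adgre1 (0.773-fold) and Mertk (0.433-fold) lower. The 8 genes of cycling cells summed to 1720 to 2036 CPM in DKO and 1851 to 1877 in WT, with 4 higher. No adipocyte, T cell or B cell marker had enough counts to be tested. The part of these cells in the differences of the synthesis genes was not tested.

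In Cbl-/- against WT, 2 of the 29 synthesis genes passed, 1 in each direction, where 9.87% of all tested genes were called, 5.68% higher and 4.19% lower. Sc5d was at 53.1, 52.5 and 53.8 CPM in Cbl-/-, above every WT library, a rise of 1.30-fold (log2 0.38, SE 0.07, adjusted p = 0.003). All 3 lay above DKO 1 and DKO 2 and just under DKO 3. Insig1 was at 102, 97.4 and 97.7 CPM in Cbl-/-, below every WT library, and fell to 0.869-fold of WT (log2 -0.20, SE 0.05, adjusted p = 0.013). The Insig1 call was lost without WT 2 (log2 -0.20, adjusted p = 0.054), Cbl-/- 2 (log2 -0.19, adjusted p = 0.071) or Cbl-/- 3 (log2 -0.19, adjusted p = 0.072). Sc5d was called under all 21 alternatives. The median log2 fold change of the 29 genes was 0.02, against -0.01 over all genes. Nearest to the threshold among the rest were Sqle, at 141 CPM in each Cbl-/- library (log2 0.16, SE 0.05, adjusted p = 0.051), and Acat2, at 29.5, 32.8 and 31.4 CPM (log2 0.22, SE 0.07, adjusted p = 0.068). Both had every Cbl-/- library above every WT library, as did 11 of the 29 members and 19% of all genes, while 2 members had every Cbl-/- library below WT (18.6% of all genes). Without DKO 3 6 members were higher and 2 lower, where 9.47% and 7.73% of all genes were. With the GC correction 4 were higher and 2 lower, where 8.4% and 6.53% of all genes were. With only the compared genotypes in the fit the calls also rose, for members and for all genes, as given in the last section. The count of 2 therefore depends on the fit. The 8 genes of cycling cells were all higher in Cbl-/-, at summed levels of 2369 to 2412 CPM against 1851 to 1877 in WT. Of the monocyte markers 2 of 6 and of the granulocyte markers 2 of 4 were higher, at summed levels of 81.9 to 92.1 and 4.34 to 5.76 CPM, and 3 of 8 macrophage markers were lower. The part of these cells in the values was not tested.

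In Cbl-b-/- against WT, 0 of the 29 synthesis genes passed by edgeR's quasi-likelihood test, where 0.489% of all tested genes were called. No member had an unadjusted p under 0.05 either (0 of 29), and DESeq2 and limma voom also called 0. The log2 fold changes lay between -0.15 for Msmo1 and 0.15 for Mvk, with a median of -0.02. Every Cbl-b-/- library was above every WT library for 2 members (7.84% of all genes) and below for 1, Msmo1 (7.27%). Sqle was at 134, 136 and 129.7 CPM in Cbl-b-/-, and Srebf2 at 269, 265 and 268 against 262, 271 and 267 in WT. For the other 26 members the Cbl-b-/- and WT libraries overlapped, and a p that misses the threshold does not show that the levels were equal.

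Compared with Cbl-/-, DKO had 11 synthesis genes higher and 3 lower, where 29.6% of all genes were called, 16% higher and 13.6% lower. Compared with Cbl-b-/-, it had 14 higher and 4 lower, where 33.2% were called, 17.7% higher and 15.6% lower. The groups did not overlap for 13 members above and 5 below Cbl-/- (22.5% and 20.2% of all genes), and for 13 above and 4 below Cbl-b-/- (20.9% and 19.6%). These comparisons share the DKO libraries with each other and with the comparison against WT, so they are not independent of it. Hsd17b7, at 46.3, 47.0 and 47.3 CPM in Cbl-/- and 42.9, 39.0 and 36.8 in Cbl-b-/-, was lower there than in every DKO library (log2 of DKO against them 0.31 and 0.55, SE 0.07 each, adjusted p = 0.0018 and 8.1e-06). Msmo1 was at 153, 147 and 138 CPM in Cbl-/- and 156, 150.5 and 136 in Cbl-b-/-, below every WT and every DKO library. DKO was above them by log2 0.35 (SE 0.08, adjusted p = 0.0038) and 0.34 (SE 0.08, adjusted p = 0.0043), or by 0.23 (adjusted p = 0.0029) and 0.22 (adjusted p = 0.0040) without DKO 3. Insig1 was higher in DKO than in Cbl-/- by log2 0.31 (SE 0.05, adjusted p = 0.00016), and than in Cbl-b-/-, at 115, 109 and 112 CPM, by 0.13 (SE 0.05, adjusted p = 0.043). The last of these calls was lost under 14 of 21 alternatives, with a log2 of 0.04 for total counts (adjusted p = 0.55) and 0.07 for the GC correction (adjusted p = 0.23). Sc5d in DKO was 0.933-fold of Cbl-/- (log2 -0.10, SE 0.07, adjusted p = 0.34) and 1.25-fold of Cbl-b-/- (log2 0.32, SE 0.08, adjusted p = 0.0037). The count against Cbl-/- was 6 without Cbl-/- 1 and 4 without Cbl-/- 3, and that against Cbl-b-/- was 11 without Cbl-b-/- 3. Leaving out a library also changed the calls over all genes, with ranges given in the last section, so these counts do not describe the members alone. Without DKO 3 the splits were 14 higher and 3 lower against Cbl-/- (17.8% and 16% of all genes). Against Cbl-b-/- they were 18 higher and 3 lower (18.8% and 16.6%). With total counts for scaling the splits were 4 higher and 5 lower against Cbl-/- (10.7% and 21.7% of all genes). Against Cbl-b-/- they were 7 higher and 5 lower (12.2% and 25.3%).

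**Figure D4:**
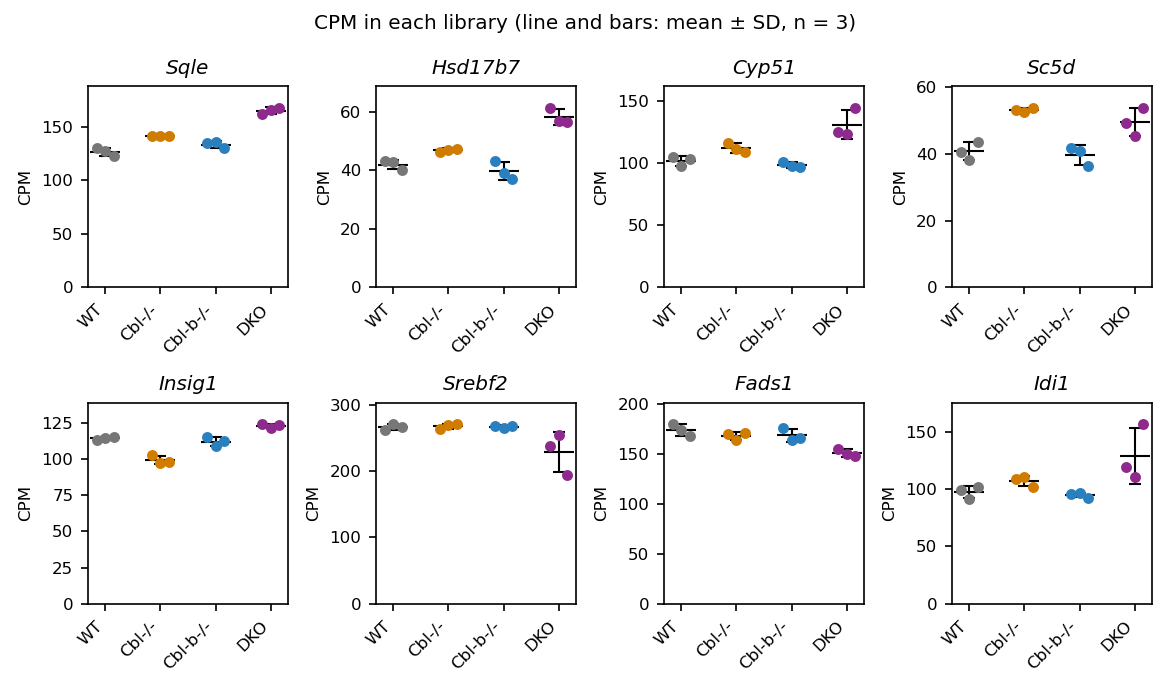
CPM in each library (points), with the mean (line) and SD (bars, n = 3) per genotype, for 8 synthesis genes; each axis starts at 0. Sqle, Hsd17b7, Cyp51 and Idi1 are highest in DKO, Sc5d is high in Cbl-/- (52.5 to 53.8) and in DKO, Insig1 is lowest in Cbl-/-, and Srebf2 and Fads1 are lowest in DKO.

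Whether DKO departed from the sum of the Cbl-/- and Cbl-b-/- effects was tested on the log2 scale in the same fit. This passed for 4 of 29 members, all above the sum, where 15.7% of all genes passed, 8.39% above and 7.28% below. The departures were 0.50 for Msmo1 (SE 0.12, adjusted p = 0.0065), 0.39 for Hsd17b7 (SE 0.09, adjusted p = 0.0087), 0.34 for Insig1 (SE 0.07, adjusted p = 0.003) and 0.27 for Cyp51 (SE 0.09, adjusted p = 0.049). The mean levels of Msmo1 and Insig1 were below WT in both single knockouts and above WT in DKO. Msmo1, Hsd17b7 and Insig1 passed under all 20 alternatives, while Cyp51 did not in 14 of them, including the fits without any 1 of the WT, Cbl-/- and Cbl-b-/- libraries, where its departure was 0.25 to 0.30. Without DKO 2 or DKO 3, 7 members passed, and without DKO 3 the departure of Msmo1 was 0.38 (adjusted p = 0.00089). In the fit without DKO 3 all 7 were above the sum, where 11.3% of all genes passed above and 10.4% below. Total counts for scaling moved the median of all genes by -0.11. The split was then 3 above and 2 below (5.61% and 13.6% of all genes). With the GC correction it was 4 and 4 (9.07% and 14.3%).

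Genes around the pathway were read from 4 further lists with 53 genes, of which 48 were tested. Among other sterol and mevalonate genes in DKO against WT, 3 of 8 were higher and 2 lower, where 19.1% of all tested genes were higher and 16.3% lower. Nus1, a subunit of the enzyme that makes dolichol from mevalonate units, rose 1.29-fold from 105 ± 0.48 to 136 ± 15 CPM (log2 0.36, adjusted p = 0.00036). Lbr, a nuclear envelope protein with sterol reductase activity, was at 121, 132 and 123 CPM in WT and 93.4, 84.5 and 92.1 in DKO and fell to 0.718-fold (log2 -0.48, adjusted p = 9.3e-06). Among genes of sterol sensing, uptake and SREBP processing, 2 of 14 were higher and 3 lower. That is 35.7% called, near the 35.4% of all tested genes. Mylip, a sterol-induced E3 ubiquitin ligase that limits lipoprotein uptake, fell from 40.5 ± 2.4 to 28.9 ± 1.6 CPM (log2 -0.48, adjusted p = 4.7e-05). Erlin2, an endoplasmic reticulum protein of sterol-dependent degradation, fell from 59.5 ± 2.4 to 50.3 ± 0.74 CPM (log2 -0.24, adjusted p = 0.0033). Npc2, a lysosomal sterol carrier, rose from 581 ± 7.6 to 685 ± 36 CPM (log2 0.24, adjusted p = 0.0017).

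Several genes of the other lists had larger fold changes than any of the 29 synthesis genes. Of 17 other fatty acid genes, 6 were higher and 1 lower in DKO against WT, 41.2% called against 35.4% of all tested genes. Scd2, a stearoyl-CoA desaturase, was at 49.3, 44.6 and 46.0 CPM in WT and 117, 109 and 108 in DKO, 2.39-fold higher (log2 1.26, SE 0.06, adjusted p = 1.7e-10). Acsl1, which activates long-chain fatty acids, rose 2.59-fold in DKO, from 59.2 ± 2.4 to 153 ± 2.6 CPM (log2 1.37, adjusted p = 1.9e-11), and 1.61-fold in Cbl-/-, to 95.2 ± 3.2 CPM (log2 0.69, adjusted p = 2e-07). Nr1h3, which encodes the sterol-sensing receptor LXR-alpha, was at 11.03 ± 0.52 CPM in WT, 15.04 ± 0.81 in Cbl-/- (log2 0.45, adjusted p = 0.0029) and 24.6 ± 1.8 in DKO (log2 1.15, adjusted p = 3.3e-08). Of 9 efflux and oxysterol genes, 2 were higher and 3 lower in DKO, 55.6% called against the same 35.4%. Abcg1, a sterol exporter, was at 41.0, 39.6 and 49.1 CPM in WT and 106, 104 and 97.9 in DKO (log2 1.25, SE 0.08, adjusted p = 6.3e-09). Apoe, the lipoprotein that takes up exported sterol, was at 367, 345 and 306 CPM in WT and 57.1, 57.3 and 48.6 in DKO, 0.16-fold of WT (log2 -2.64, SE 0.08, adjusted p = 5.9e-13). Ch25h, which makes an oxysterol that restrains SREBP processing, fell from 23.5 ± 5.4 to 4.42 ± 0.42 CPM (log2 -2.41, SE 0.17, adjusted p = 4.3e-08). Apoe and Abcg1, both known LXR targets, thus differed in direction.

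In Cbl-/- the same 4 lists had 1 higher and 1 lower of 8, 1 and 1 of 14, 3 and 0 of 17, and 2 and 3 of 9. Of all tested genes 5.68% were higher and 4.19% lower there. Apoe was at 408, 381 and 408 CPM in Cbl-/-, with a log2 of 0.23 (SE 0.07, adjusted p = 0.049) that was lost under 10 alternatives, and Abcg1 was at 36.1 ± 1.3 CPM and did not pass (log2 -0.26, adjusted p = 0.062). In Cbl-b-/- the smallest adjusted p among the 48 tested genes was 0.11, for Nr1h3 at 14.1 ± 0.86 CPM (log2 0.36). Idi2 had no row in the table, and Mlxipl and Cyp7b1 had too few counts to test.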

How the data were processed

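The authors deposited whole-number read counts per gene with no normalization for 12 libraries. Per the labels' protocols, libraries came from a stranded TruSeq kit for messenger RNA. The build named in the submitters' processing notes is GRCm38.p5. The sources used here do not give the aligner, the counting program, its use of strand or its treatment of reads with more than 1 position, so genes with close copies are uncertain. Every gene in the table had at least 1 count in WT 1.

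A single model over the 12 libraries was fitted in edgeR 4.0.16 (R 4.3.3), with TMM scaling, filterByExpr (12671 genes kept, 2884 removed) and 1 mean per genotype in a robust quasi-likelihood fit. Adjusted p values are Benjamini-Hochberg over all 12671 genes in each of 6 contrasts, called at 0.05 with no limit on fold size. CPM was computed from the deposited counts with TMM factors. The scripts were tested on simulated counts. Replicates differed by a chi-square per degree of freedom of 3.93 to 55.3, so none was a duplicate.

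Values by library are given for the 14 members with the smallest adjusted p over the comparisons with WT, and for up to 3 genes of each further list. The members and lists were chosen with earlier results of these data known. The alternatives were other scalings (DESeq2 size factors, total counts), no filter or 5 CPM in 3 libraries, DESeq2 1.42.0, limma 3.58.1 voom, a replicate-number block, a fit on the compared genotypes only, leaving out each library, and GC content offsets (loess, span 0.5, chosen after seeing the data). Promoter windows are from RefSeq, and gene positions, exon lengths and GC content from the GENCODE annotation of GRCm38. Some results for genes of the further lists are not reported here.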

Additional observations from a re-analysis of the deposited data

Results flagged for a closer look

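For 4 synthesis genes the test of the DKO effect against the sum of the Cbl-/- and Cbl-b-/- effects passed on the log2 scale. They are 13.8% of the 29 members, where 15.7% of all tested genes passed. The departure was 0.50 for Msmo1, 0.39 for Hsd17b7, 0.34 for Insig1 and 0.27 for Cyp51, each above the sum. The Cyp51 call was lost under 14 of 20 alternatives. With 3 libraries a genotype, no rule for outlying values was applied to single libraries, but each was left out in turn. Without DKO 3 the departures were 0.38 for Msmo1, 0.41 for Hsd17b7, 0.33 for Insig1 and 0.19 for Cyp51.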

How the results depend on the processing

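Of 72 calls of single genes, 1304 of 1508 alternative values kept the call, 204 lost it and 0 reversed direction. Among the synthesis genes, the count of 2 for Cbl-/- against WT became 4 with total counts, 4 with DESeq2, 10 with only the compared genotypes in the fit and 6 with GC content offsets. Of all genes 6.34% were higher and 3.54% lower with total counts, and 8.4% and 6.53% with GC content offsets. With only the compared genotypes the calls over all genes rose too, from 1251 to 2753. The share of all genes with DESeq2 is not given here. The count of 14 for DKO against Cbl-/- became 9 with total counts and 5 with only the compared genotypes, the count of 18 for DKO against Cbl-b-/- became 9 with only the compared genotypes, and the count of 4 for the departure from the sum became 8 with GC content offsets. Leaving out each library gave 1 to 8 for Cbl-/- against WT, 0 to 0 for Cbl-b-/- against WT, 10 to 19 for DKO against WT, 4 to 17 for DKO against Cbl-/-, 11 to 21 for DKO against Cbl-b-/- and 3 to 7 for the departure. Over all genes the main counts were 1251, 62, 4485, 3747, 4211 and 1985 in that order. They became 2753 (only the compared genotypes) and 1888 (GC offsets) for Cbl-/- against WT, 145 (DESeq2) and 149 (GC offsets) for Cbl-b-/- against WT, and 2760 (only the compared genotypes) for DKO against Cbl-b-/-. Leaving out each library gave 733 to 2206, 35 to 144, 3355 to 4797, 2855 to 4332, 3493 to 4543 and 1448 to 2780 genes. The fit of only the compared genotypes has fewer libraries, yet for Cbl-/- against WT it called more genes. So did the fit without DKO 3, with 6 members higher and 2 lower (9.47% and 7.73% of all genes). DKO 3 is not in that comparison but is part of the single model. The cause of these and the other moves was not tested. Libraries with the same replicate number did not deviate together (18 pairs, correlations of -0.054 to 0.052, 0 over 0.1), so no large shared shift was seen. These correlations cannot tell whether such libraries were prepared together. With the replicate number as a block the counts were 2, 0, 16, 13, 17 and 3 synthesis genes and 1139, 60, 4280, 3577, 4015 and 1815 genes in all. The GC offsets were chosen after seeing the data. The standard errors of DKO against WT were largest for Tm7sf2 (0.15), Mvd (0.12) and Pmvk (0.11), the members with the lowest counts. Differences well above 1 SE could be missed in them, as for Pmvk, which did not pass at a log2 of 0.27.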
